A study of Mus musculus with 5 samples.

Results

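Meg3 and Malat1, 2 long noncoding RNAs, were followed through all 5 single-cell libraries of a study of mouse pancreatic islets, where they were 2 of 6631 genes measured in every library. They were taken by name, with their values in these libraries already in view, so their levels are given as a description. The study set islets of pregnant and postpartum C57BL/6 mice against those of non-pregnant females. There were 2 libraries of postpartum mice (postpartum 1 and postpartum 2), 2 from mice in pregnancy (pregnant 1 and pregnant 2) and 1 from non-pregnant females. Viable cells of isolated, dissociated islets were profiled by inDrop, a droplet method that captures polyadenylated RNA and tags each captured molecule with a unique molecular identifier (UMI). The age of the mice, the day of pregnancy or after birth and the number of animals behind a library were not given in the sources used here. Nothing states that the 2 libraries of a state came from separate animals, so p-values measure only the spread between these libraries, which may be technical.

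Meg3 is an imprinted gene, transcribed from the maternal chromosome at the Dlk1-Dio3 locus as the start of a long noncoding unit that goes on into Rian and Mirg. Its RNA is largely nuclear and has been linked to Polycomb repression and to p53, and in human islets the locus is known as one that is active in beta cells and altered in type 2 diabetes. Malat1 is among the most abundant nuclear RNAs of mammalian cells and gathers in nuclear speckles, which hold splicing factors, next to the paraspeckles built on its neighbour Neat1. The main Malat1 RNA carries no ordinary poly(A) tail: RNase P cuts the primary transcript just behind a stretch of A encoded in the genome, and that stretch folds back to protect the end.

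In the GENCODE annotation of GRCm38 (release vM21) Meg3 (ENSMUSG00000021268.17) spans chr12:109541001-109571726 on the plus strand, with 11 transcripts of 421 to 14548 bases. Malat1 (ENSMUSG00000092341.3) spans chr19:5795690-5802672 on the minus strand, with 4 transcripts, the longest an unspliced RNA of 6983 bases in 1 exon. Both are annotated as lincRNA. The 3′ part of Meg3 is overlapped on the opposite strand by Gm26906, with 3 UMIs in the non-pregnant library, and Malat1 by Gm37376, with 1 UMI. Whether the counting used the strand is not given in the sources used here, so reads of these overlaps cannot be assigned with certainty.

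Because the libraries capture A-rich RNA ends, the last 60 bases of the longest transcript of each gene and the longest run of A in Malat1 are shown, from the GENCODE transcripts, 5′ to 3′. Capitals mark the AATAAA polyadenylation signal in the end sequences and the run of A in the internal one.
Meg3-209 last 60 bases, chr12:109571667-109571726, plus strand: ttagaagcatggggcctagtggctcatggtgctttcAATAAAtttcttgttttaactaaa
Malat1-201 last 60 bases, chr19:5795690-5795749, minus strand: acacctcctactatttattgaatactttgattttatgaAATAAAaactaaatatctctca
Malat1-201 longest run of A, chr19:5795958-5796029, minus strand: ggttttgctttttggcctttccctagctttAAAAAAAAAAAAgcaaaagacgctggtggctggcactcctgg
The signal begins 24 bases before the annotated end of Meg3-209 and 22 bases before that of Malat1-201. The run of 12 A in Malat1-201 begins at base 6674 and ends 298 bases short of the annotated end, and is the encoded stretch named above. The deposited values are per gene, so which of these sites was captured was not measured.

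The RefSeq promoters (build GRCm38.p6, the bases around the first annotated start of each gene) are shown because both RNAs were higher in the postpartum libraries. Capitals mark TGACG, the core of the site bound by cyclic AMP response factors, and its reverse complement CGTCA.
Meg3 promoter, chr12:109540746-109541045, plus strand: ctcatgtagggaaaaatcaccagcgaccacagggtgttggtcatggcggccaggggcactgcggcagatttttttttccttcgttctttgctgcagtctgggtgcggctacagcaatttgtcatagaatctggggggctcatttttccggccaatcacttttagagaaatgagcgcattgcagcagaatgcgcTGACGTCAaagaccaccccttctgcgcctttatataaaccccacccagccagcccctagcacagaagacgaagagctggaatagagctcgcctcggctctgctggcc
Malat1 promoter, chr19:5802623-5802922, minus strand: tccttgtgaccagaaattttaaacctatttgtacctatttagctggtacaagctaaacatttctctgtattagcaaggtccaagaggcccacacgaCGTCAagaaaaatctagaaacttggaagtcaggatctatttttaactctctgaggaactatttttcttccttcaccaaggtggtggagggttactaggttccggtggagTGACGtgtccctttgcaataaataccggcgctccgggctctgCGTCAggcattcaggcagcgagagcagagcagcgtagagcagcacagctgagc
The Meg3 promoter holds the full palindrome TGACGTCA 57 bases before the start, which is 2 overlapping matches of TGACG. Of 32851 RefSeq promoters, 1.79% hold that palindrome. The Malat1 promoter holds TGACG at 3 places, 154, 45 and 3 bases before the start, and no palindrome. TGACG on either strand is found in 20.8% of promoters. TATAAA, in 13.6% of promoters, and CCAAT, in 37.4%, are in the Meg3 window and not in the Malat1 window. Another annotated start of Meg3 was searched as well, and each of these motifs had 0 matches there. The deposited values are per gene, so which start was used in these cells was not measured. A match is a description of the letters and says nothing on binding in these cells.

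The libraries held 557 and 1126 postpartum cells, 1993 and 164 pregnant cells and 847 non-pregnant cells, 4687 in all, of which 402, 896, 1773, 121 and 680 were insulin-led. The median cell had 236 and 572.5 UMIs in the postpartum libraries, 539 and 89 in the pregnant ones and 2553 in the non-pregnant one. Levels are given as counts per 1000000 non-hormone UMIs of the shared genes (CPM), averaged over cells. Hormone transcripts were left out of that total, which kept between 36.9% and 64.7% of the UMIs of a library. Cells were classed by the hormone with the most UMIs as glucagon-led, somatostatin-led, Ppy-led or insulin-led. In all 5 libraries summed non-hormone alpha-cell markers were higher in glucagon-led than in insulin-led cells (68067 against 1803 CPM in postpartum 1), and summed non-hormone beta-cell markers were higher in insulin-led cells. A Gcg UMI was still found in 28.1% and 75.1% of insulin-led cells of the postpartum libraries, 83% and 14.9% of those of the pregnant libraries and 92.9% of those of the non-pregnant one. Hormone RNA was thus found in droplets of other classes, and its part in the results was not tested.

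Of the 5 libraries pregnant 2 was unlike the rest. UMIs were found there for 1193 of 6695 features, and each gene detected in a cell had 5.63 UMIs on average, against 1.19 to 1.81 elsewhere. The fits of the states and of the classes are therefore given with and without it. The non-pregnant values were deposited on another scale, with 40930 features and at greater depth, so the non-pregnant state and the making of its file cannot be told apart.

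Meg3 and Malat1 were both higher in insulin-led cells of the postpartum libraries than in those of the pregnant libraries. Meg3 averaged 5259.5 CPM in postpartum 1 and 6792 in postpartum 2, against 1821 in pregnant 1 and 0 in pregnant 2, and 2049 in non-pregnant cells. Both postpartum libraries lay above the 3 others, with pregnant 1 and non-pregnant close to each other. These levels rest on 194 and 1197 Meg3 UMIs in postpartum cells, 1057 and 0 in pregnant cells and 2066 in non-pregnant cells. With 6880 non-hormone UMIs in its 121 insulin-led cells, pregnant 2 allows a Meg3 level of up to 436 CPM if UMIs are independent (3 counts). UMIs there were clumped, at 5.63 per gene detected in a cell, so this limit is too low. Whether pregnant 2 lies below pregnant 1 in Meg3 is therefore not settled.

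Malat1 averaged 9172 and 10829 CPM in insulin-led cells of postpartum 1 and 2, 3474 and 2768 in pregnant 1 and 2, and 1423 in non-pregnant cells. The postpartum values were highest and the non-pregnant value lowest, and the share of all genes with this order was not counted. These levels rest on 356 and 2023 UMIs, 1784 and 25 UMIs, and 1264 UMIs. In pregnant 2 a single insulin-led cell held 23 of the 25, so its Malat1 level is in effect that of 1 cell.

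Between postpartum and pregnant libraries Meg3 averaged 6026 ± 1084 against 911 ± 1288 CPM and Malat1 10001 ± 1172 against 3121 ± 499 CPM (SD, n = 2 each). In the limma fit over all 5 libraries (log2 of CPM + 100, Benjamini-Hochberg adjustment over 2203 genes) the postpartum minus pregnant difference was 3.79 ± 0.82 for Meg3 (SE, adjusted p = 0.00372) and 1.65 ± 0.39 for Malat1 (adjusted p = 0.0147). Both passed the 0.05 threshold, which 0.136% of the genes tested did (3 genes, the other being Chga). The median over all genes was 0.55 in this fit, and the Meg3 value depends on the 0 of pregnant 2. Without pregnant 2 the differences were 1.66 ± 0.26 for Meg3 and 1.49 ± 0.22 for Malat1 (limma adjusted p = 5.85e-08 and 4.08e-09), against a median of -0.03 over all genes, of which 2.7% passed. In these 2 fits limma took the error of a gene wholly from its trend with level, so the gene's own scatter did not enter. Left without postpartum 1 or without postpartum 2, neither gene passed (adjusted p = 0.999 or above), although the differences kept their size, at 3.98 and 3.61 for Meg3 and 1.77 and 1.53 for Malat1. With the genes chosen on these values, a p sets the difference against the spread between libraries and supports nothing further.

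Against the non-pregnant library Malat1 was higher in the postpartum libraries by 2.72 ± 0.47 on the log2 scale (limma adjusted p = 1.08e-05; 0.318% of genes passed), a call that was also lost without either postpartum library. The Meg3 difference of 1.5 ± 1.00 did not pass (adjusted p = 1). It passed without pregnant 2 at the same size, 1.5 ± 0.26 (adjusted p = 6.85e-07; 6.1% of genes passed). Pregnant minus non-pregnant gave 1.07 ± 0.47 for Malat1 and -2.29 ± 1.00 for Meg3 over all libraries (adjusted p = 0.892 for both; 0.136% of genes passed). Without pregnant 2 Malat1 was higher by 1.23 ± 0.25 (adjusted p = 0.00015; 2.17% of genes passed), while Meg3 differed by -0.16 ± 0.30 (adjusted p = 0.998). The pregnant against non-pregnant value without pregnant 2 compares 1 library with 1 library, and the lone libraries are assumed to vary like the postpartum pair.

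Other cell types and a stress signature were measured beside the postpartum difference. In insulin-led cells 17 immediate early and stress genes such as Fos, Jun and Hspa1a, a list chosen after the data were seen, summed to 25901 and 28588 CPM in postpartum, 7638 and 9884 in pregnant and 4681 in non-pregnant libraries. The 12 measured acinar markers summed to 2539 and 2178, 32.3 and 6250, and 907 CPM. Both lists were higher in the postpartum libraries than in pregnant 1, and their part in the result was not tested. Non-hormone beta-cell markers summed to 11224 and 10144 CPM in postpartum, 7489 and 12064 in pregnant and 5027 in non-pregnant insulin-led cells. In the same order ductal markers summed to 838 and 1246, 1966 and 2326, and 1956 CPM. Endothelial markers summed to 711 and 875, 576 and 0, and 962 CPM. Macrophage markers summed to 635 and 1071, 549 and 2762, and 322 CPM. In glucagon-led cells the immediate early and stress genes summed to 30296 and 29106 CPM in postpartum, 9025 and 19480.5 in pregnant and 5833 in non-pregnant cells. The 6 measured alpha-cell markers, also higher in postpartum there, summed to 68067 and 67263 CPM, 22085 and 26696, and 21573. The acinar sum was 157 and 123 CPM in postpartum, 0 and 0 in pregnant and 342 in non-pregnant glucagon-led cells, with 10, 8, 12, 12 and 3 of the 12 markers at 0. The part of these lists in the levels of both RNAs was not tested.

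The size of the difference depended on the total. As a share of all UMIs, hormones included, Malat1 took 0.361% and 0.36% of the UMIs of insulin-led cells in the postpartum libraries, 0.184% and 0.226% in the pregnant ones and 0.0705% in the non-pregnant one. Meg3 took 0.197% and 0.213% in postpartum, 0.109% and 0% in pregnant and 0.115% in non-pregnant cells. Both postpartum libraries were above the others for both RNAs. These shares are pooled over cells, and for Malat1 pregnant 2 was above pregnant 1. Pooled CPM gave the same order, 3634 in pregnant 2 against 3389 in pregnant 1. Only the CPM averaged over cells gave the reverse, so the total did not set this order. On that total the postpartum minus pregnant difference was 2.79 ± 0.99 for Meg3 and 0.96 ± 0.36 for Malat1, and neither passed in limma (adjusted p = 0.8 for both). Neither gene passed with edgeR or DESeq2 on the summed UMIs in any comparison between states. These fits hold all 5 libraries and were not run without pregnant 2.

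The share of cells with at least 1 UMI was compared with all UMIs and with each cell thinned to 100 UMIs. Unthinned, Meg3 was found in 36.6% and 58.6% of postpartum insulin-led cells, 32.6% and 0% of pregnant ones and 75.6% of non-pregnant ones. Thinned, it was found in 20.5% and 17.9%, 8.54% and 0%, and 9.56%. Thinning put the non-pregnant library beside pregnant 1 and below both postpartum ones. Malat1 was found in 46% and 65.5% of postpartum cells, 37.5% and 2.48% of pregnant cells and 56.5% of non-pregnant cells unthinned. After thinning the shares were 25.2% and 27.6%, 12.8% and 6.67%, and 6.03%. Thinning left out the cells of fewer than 100 UMIs, which in pregnant 2 was 75.2% of insulin-led cells and elsewhere at most 0.498%.

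Malat1 was lower in the deeper cells of the non-pregnant library, and Meg3 was higher in the deeper cells of pregnant 1. Insulin-led cells of each library were split into tertiles by their total UMIs, and the UMIs of a tertile were pooled. Non-pregnant Malat1 was 1814, 1436 and 836 CPM in the tertiles with a median of 1460, 2652 and 4683 UMIs, a ratio of the highest to the lowest tertile of 0.461 (0.4 to 0.532) (95% interval, exact binomial on the UMIs). The same ratio for Malat1 was 1.21 (0.91 to 1.63) in postpartum 1, 0.905 (0.803 to 1.02) in postpartum 2 and 0.891 (0.785 to 1.01) in pregnant 1, and these 3 intervals include 1. Deep non-pregnant cells thus carried less Malat1 per non-hormone UMI than shallow ones. For Meg3 the ratio was 0.98 (0.659 to 1.48) and 0.908 (0.779 to 1.06) in the postpartum libraries, 1.42 (1.18 to 1.71) in pregnant 1 and 0.875 (0.774 to 0.991) in non-pregnant cells. In pregnant 2 the tertiles held 0, 1 and 24 Malat1 UMIs, the last of them mostly in 1 cell, and 0 of Meg3. All intervals here cover counting error only.

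The tertiles nearest in depth were set side by side. The shallowest non-pregnant tertile, the one nearest in depth to the other libraries, had 1814 CPM of Malat1 at a median of 1460 UMIs. The deepest tertile of postpartum 2 had 9527 CPM at a median of 1044 UMIs, and that of pregnant 1 3352 CPM at 955 UMIs. For Meg3 the same tertiles had 1982 CPM (1778 to 2203) in the non-pregnant library, 5861 CPM in postpartum 2 and 2325 CPM (2153 to 2506) in pregnant 1, the last of which overlaps the first. Across insulin-led cells Spearman's rho between CPM and total UMIs lay between -0.05 and 0.24 for both genes in the 4 libraries other than pregnant 2. The total is in the denominator of the CPM, and cells with no UMI of the gene share 1 value. Mitochondrially encoded genes, a sign of RNA quality, were in the non-pregnant file only. There Malat1 was 1030.0, 1217 and 1273 CPM, and Meg3 1782, 1938 and 2006 CPM, in tertiles of rising mitochondrial share. The intervals of the lowest and highest tertile overlap for Meg3 (1657 to 1913 and 1855 to 2165.5) and not for Malat1 (936 to 1131 and 1153 to 1401). Depth fell across the same tertiles, at medians of 2946, 2640 and 2303 UMIs, and its part was not tested.

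**Figure D1:**
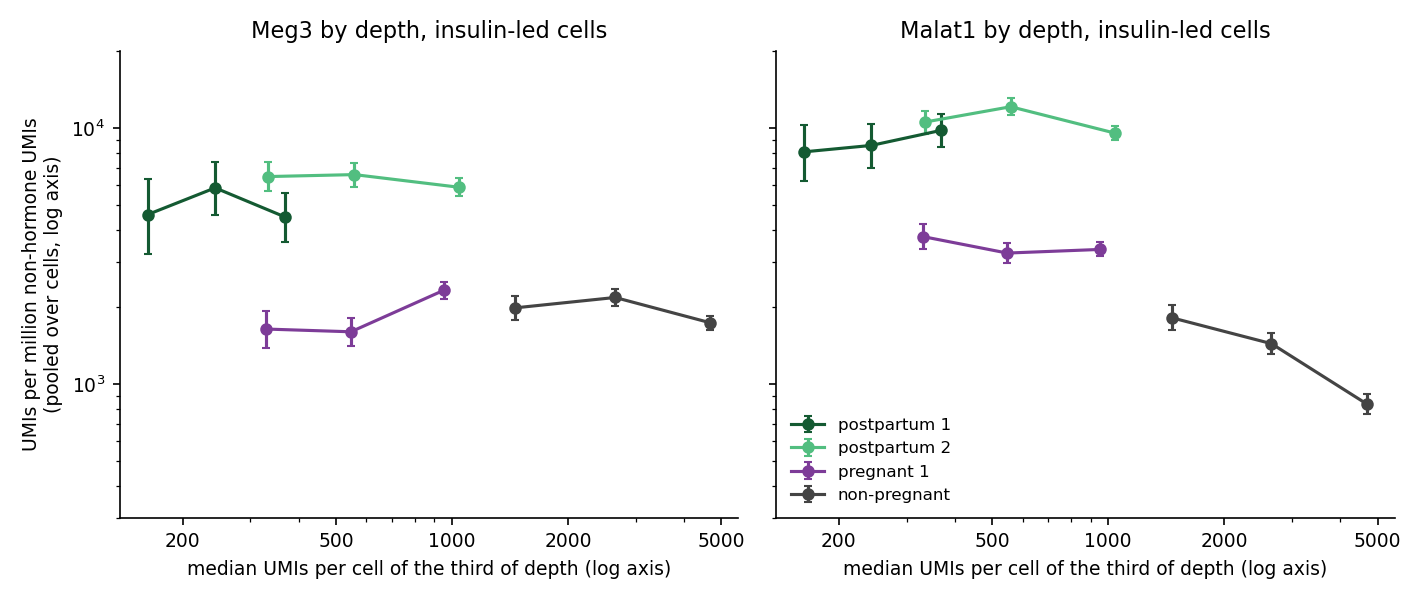
Meg3 (left) and Malat1 (right) in insulin-led cells by depth. Each point is a tertile of the cells of a library by total UMIs, at its median UMIs per cell (log axis) and its UMIs per 1000000 non-hormone UMIs (log axis), with exact Poisson 95% intervals; pregnant 2 is not drawn. Both postpartum libraries lie above pregnant 1 and the non-pregnant library in every tertile, and Malat1 falls with depth in the non-pregnant library, 1814 to 836 CPM.

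Malat1 was about 2 times as high in glucagon-led as in insulin-led cells of the same library in 4 of 5 libraries. Its mean level in glucagon-led cells was 16813 and 23327 CPM in postpartum 1 and 2, 7260.1 and 537 in pregnant 1 and 2 and 2768 in non-pregnant cells, from 123, 179, 141, 23 and 94 cells. On pooled UMIs the ratio to insulin-led cells was 1.84 (1.54 to 2.18) in postpartum 1, 2.03 (1.88 to 2.19) in postpartum 2, 2.18 (1.91 to 2.48) in pregnant 1 and 1.99 (1.74 to 2.26) in non-pregnant cells (95% intervals). In pregnant 2 it was 0.199 (0.00484 to 1.21), from 1 UMI in glucagon-led cells. With pregnant 2 left out, the order was the same as in insulin-led cells: both postpartum libraries were above pregnant 1, and pregnant 1 above non-pregnant. Pregnant 2, on its 1 UMI, lay below the non-pregnant library.

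Meg3 was higher in glucagon-led cells of the postpartum libraries and about level elsewhere. Its mean level in glucagon-led cells was 7858 and 10773 CPM in postpartum 1 and 2, 2051 and 247 in pregnant 1 and 2 and 2014 in non-pregnant cells. The pooled ratio to insulin-led cells was 1.58 (1.23 to 2.02) and 1.63 (1.46 to 1.81) in the postpartum libraries, 1.06 (0.831 to 1.33) in pregnant 1 and 0.988 (0.858 to 1.13) in non-pregnant cells. Pregnant 2 had 1 Meg3 UMI in glucagon-led cells and none in insulin-led cells.

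In the limma fit with library as a block, glucagon-led minus insulin-led was 0.35 ± 0.56 for Malat1 and 0.63 ± 0.39 for Meg3 over all 5 libraries (adjusted p = 0.733 and 0.463; 0.237% of 2107 genes passed). Without pregnant 2 Malat1 passed at 0.98 ± 0.14 (adjusted p = 5.01e-05) and Meg3, at 0.34 ± 0.16, did not (adjusted p = 0.198). There 12.4% of 2374 genes passed, so a call is common in that fit. Whether the class difference itself changed between states was tested as an interaction over all 5 libraries, and no adjusted p was below 0.76 for either gene.

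**Figure D2:**
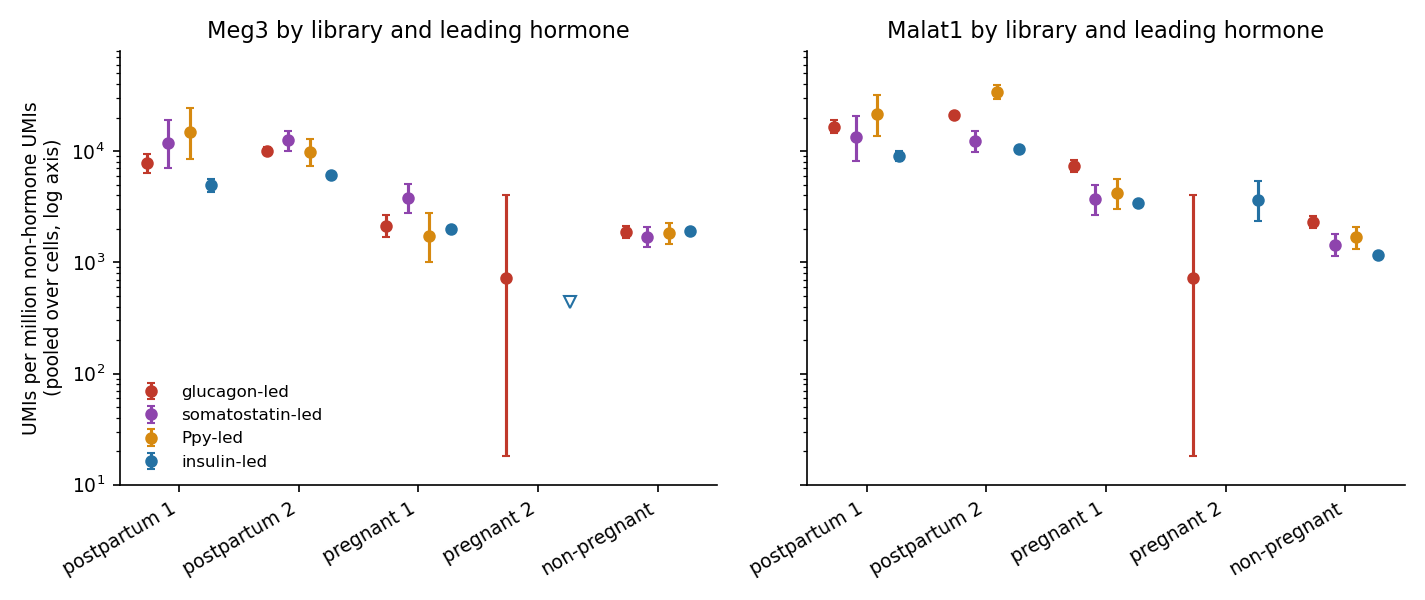
Meg3 (left) and Malat1 (right) in each library by leading hormone. The axis is UMIs per 1000000 non-hormone UMIs pooled over cells, on a log axis, with exact Poisson 95% intervals. Classes of fewer than 10 cells are not drawn. The open triangle is the limit that 0 UMIs allow if UMIs are independent. Malat1 is higher in glucagon-led (red) than in insulin-led cells (blue) in 4 libraries, by 1.84 to 2.18 times, and both genes are highest in the postpartum libraries.

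The class difference depended on how purely a cell carried its own hormone. Cells were split at a share of 95% of the leading hormone among the 4 hormone sets, a threshold chosen after the data were seen. Among cells at or above it, the Malat1 ratio of glucagon-led to insulin-led cells was 1.97 (1.62 to 2.38) in postpartum 1 and 2.02 (1.85 to 2.2) in postpartum 2, 1.36 (1.11 to 1.64) in pregnant 1 and 0.931 (0.7 to 1.22) in non-pregnant cells. Among cells below it the ratio was 1.32 (0.826 to 2.15) and 1.95 (1.66 to 2.28), 3.84 (3.19 to 4.59), and 3.09 (2.63 to 3.63). The postpartum ratios stayed near 2 above the threshold, and the non-pregnant one had an interval that includes 1.

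Meg3 behaved likewise. At or above 95% its ratio was 1.57 (1.18 to 2.07) and 1.62 (1.43 to 1.84) in the postpartum libraries, but 0.592 (0.387 to 0.869) in pregnant 1 and 0.59 (0.441 to 0.773) in non-pregnant cells, where Meg3 was thus lower in the glucagon-led cells. Below 95% it was 1.75 (1.29 to 2.35) in pregnant 1 and 1.31 (1.11 to 1.54) in non-pregnant cells. In the limma fit on cells at or above 95%, without pregnant 2, the class difference was 0.57 ± 0.21 for Malat1 and -0.05 ± 0.24 for Meg3, and neither passed (adjusted p = 0.0863 and 0.942; 9.54% of genes passed).

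The split was also wide within insulin-led cells of pregnant 1. There the 723 cells at or above 95% had 5376 CPM of Malat1 and the 1050 below it 1947; Meg3 was 2819 and 1419 CPM. Their median depths were 568 and 529.5 UMIs, so the cells differed little in depth. In the non-pregnant library Malat1 was 1378 and 938 CPM on the 2 sides, and in postpartum 2 10231 and 11469.8 CPM. Cells below 95% made up 7.71% and 14.7% of insulin-led cells in the postpartum libraries, 59.2% in pregnant 1 and 51.8% in the non-pregnant one. Restricted to cells at or above 95% and without pregnant 2, postpartum minus pregnant was 1.19 ± 0.20 for Meg3 and 0.83 ± 0.16 for Malat1, smaller than over all cells, and both passed in limma (adjusted p = 0.0111 and 0.0228; 0.893% of genes passed). In the same cells postpartum minus non-pregnant was 1.28 ± 0.20 for Meg3 and 2.35 ± 0.16 for Malat1, and both passed (3.49% of genes did), while pregnant minus non-pregnant was 1.52 ± 0.18 for Malat1, which passed, and 0.09 ± 0.24 for Meg3, which did not (1.14% of genes did). What sets the hormone share of a cell was not tested.

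**Figure D3:**
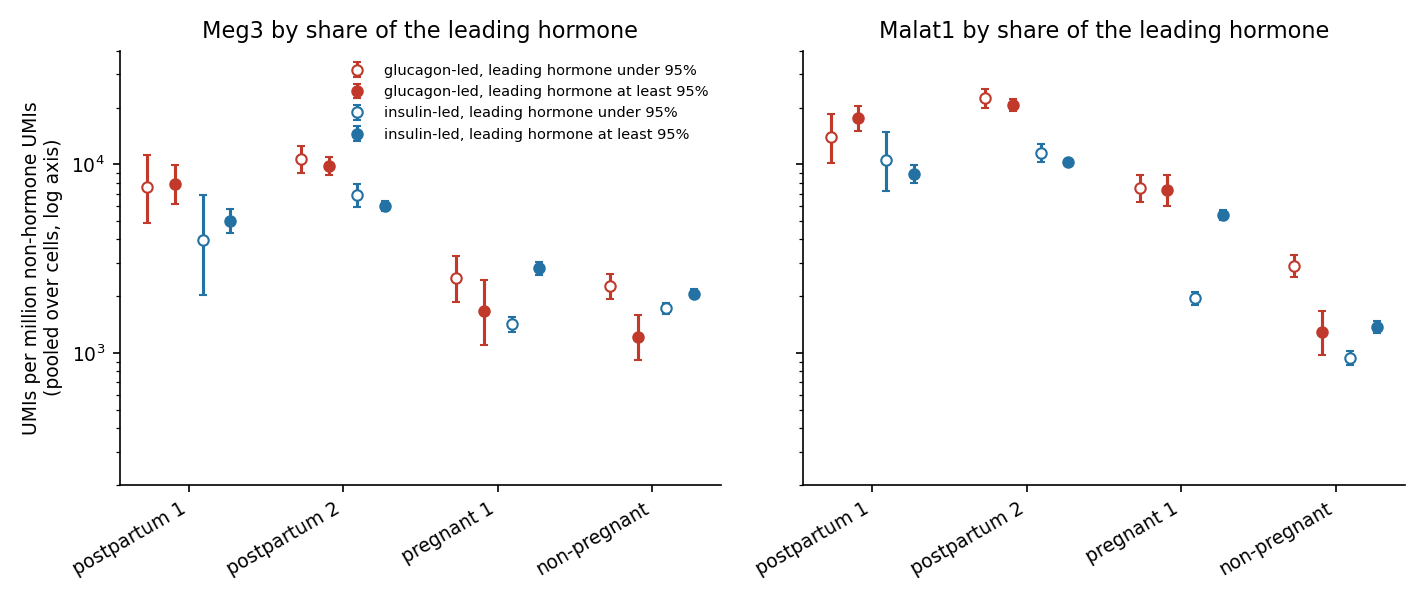
Meg3 (left) and Malat1 (right) in glucagon-led (red) and insulin-led (blue) cells whose leading hormone made up under 95% (open) or at least 95% (filled) of the hormone UMIs. The axis is UMIs per 1000000 non-hormone UMIs pooled over cells, on a log axis, with exact Poisson 95% intervals; pregnant 2 is not drawn. In pregnant 1 the open blue Malat1 point, 1947 CPM, lies below the filled one, 5376 CPM, and in the non-pregnant library the filled red and blue Malat1 points overlap.

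Somatostatin-led cells were few, 15, 25, 36, 7 and 39 from postpartum 1 to non-pregnant, and carried more Meg3 than insulin-led cells in 3 libraries. Of these cells 2, 0, 2, 7 and 10 were at or above 95% of their own hormone, so nearly all those of the 3 libraries also held UMIs of another classing hormone. Their Meg3 ratio to insulin-led cells was 2.43 (1.41 to 3.94) and 2.03 (1.63 to 2.51) in the postpartum libraries, 1.88 (1.36 to 2.53) in pregnant 1 and 0.89 (0.714 to 1.1) in non-pregnant cells. Their Malat1 ratio was 1.47 (0.887 to 2.3) and 1.18 (0.944 to 1.45), 1.09 (0.788 to 1.47), and 1.23 (0.968 to 1.55), and all 4 intervals include 1. These intervals cover counting error, and no test over libraries was made for this class.

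Ppy-led cells numbered 13 and 21 in the postpartum libraries, 35 and 3 in the pregnant ones and 34 in the non-pregnant one. Their Malat1 ratio to insulin-led cells was 2.38 (1.49 to 3.63) and 3.25 (2.78 to 3.77) in postpartum, 1.23 (0.882 to 1.68) in pregnant 1 and 1.44 (1.14 to 1.8) in non-pregnant cells. Postpartum 2 held the highest Malat1 level of any class drawn, 48159.7 CPM on average over cells and 33804 pooled. Their Meg3 ratio was 3.04 (1.7 to 5.06) and 1.6 (1.2 to 2.09) in postpartum, 0.863 (0.501 to 1.39) in pregnant 1 and 0.968 (0.775 to 1.2) in non-pregnant cells. In pregnant 2 neither RNA had a UMI in somatostatin-led or Ppy-led cells.

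The balance between the 2 RNAs set the non-pregnant library apart. Meg3 made up 35.3% (31.3 to 39.4%) and 37.2% (35.5 to 38.9%) of the Meg3 and Malat1 UMIs of postpartum insulin-led cells, 37.2% (35.4 to 39%) in pregnant 1 and 62% (60.4 to 63.7%) in non-pregnant cells (exact binomial intervals). In pregnant 2 it was 0 of 25 UMIs, but 23 of the 25 lay in 1 cell. They are not independent, so no limit on the share is drawn from them. The 3 libraries other than pregnant 2 that share a file format thus had overlapping intervals, and the interval of the non-pregnant library lay above all of them. UMIs tag molecules at the captured end and were not scaled to length, so the share is compared between libraries and not read as the ratio of the 2 RNAs in a cell.

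By class, the Meg3 share of glucagon-led cells was 31.9% (26.8 to 37.4%) and 32.2% (29.9 to 34.6%) in postpartum, 22.3% (18.1 to 27.1%) in pregnant 1 and 44.8% (40.5 to 49.3%) in non-pregnant cells. Somatostatin-led cells had 47.4% (31 to 64.2%) and 50.5% (43.1 to 57.9%), 50.6% (39.8 to 61.3%), and 54.1% (46.3 to 61.8%). In somatostatin-led cells all 4 intervals overlap, and in glucagon-led cells the non-pregnant interval lay above the others. Ppy-led cells had 41% (25.6 to 57.9%) and 22.5% (17.5 to 28.3%) in postpartum, 29.3% (18.1 to 42.7%) in pregnant 1 and 52.3% (44.6 to 60%) in non-pregnant cells, where the non-pregnant interval overlaps that of postpartum 1.

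**Figure D4:**
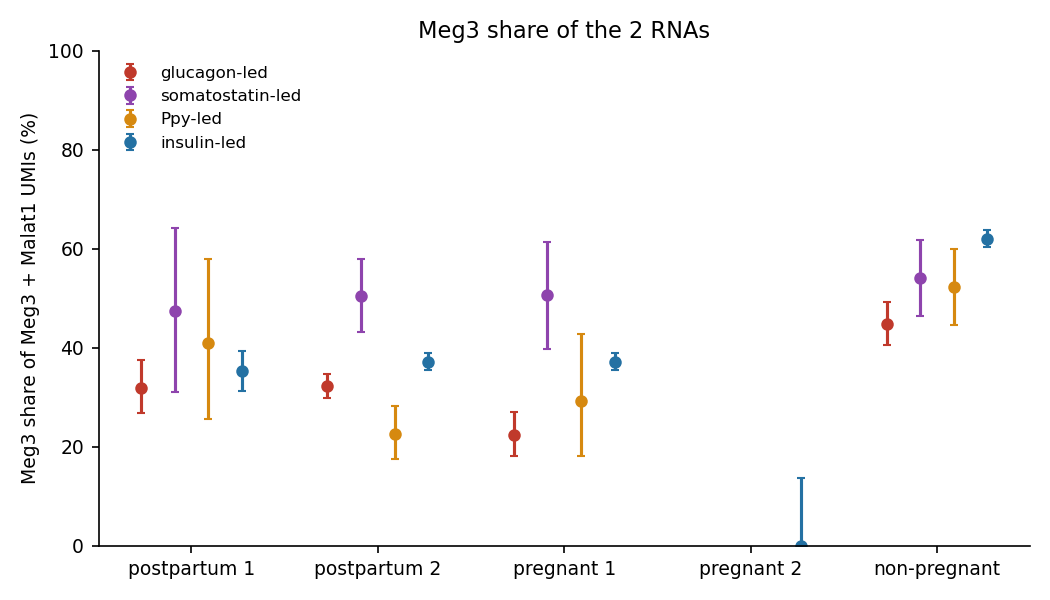
Share of Meg3 among the summed Meg3 and Malat1 UMIs (percent), by library and leading hormone, with exact binomial 95% intervals; classes with fewer than 10 UMIs of the pair are not drawn. Insulin-led cells (blue) lie at 35.3%, 37.2% and 37.2% in postpartum 1, postpartum 2 and pregnant 1 and at 62% in the non-pregnant library. The pregnant 2 point rests on 25 UMIs, 23 of them in 1 cell, so its interval is too narrow.

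Both RNAs were spread over many cells in 4 libraries. The 1% of cells with most Meg3 UMIs held 8.56% of them in postpartum 1, 7.42% in postpartum 2, 12.2% in pregnant 1 and 8.03% in non-pregnant cells. For Malat1 the shares were 6.36% and 8.46% in postpartum, 12.4% in pregnant 1 and 12.9% in non-pregnant cells. No cell of these 4 held more than 2.28% of the UMIs of either gene. In pregnant 2, 1 cell of 111 UMIs held 62.2% of all Malat1 UMIs, and the only Meg3 UMI was in a glucagon-led cell. Between Meg3 and Malat1 in single insulin-led cells, Spearman's rho of the CPM was 0.03 and 0.25 in postpartum 1 and 2, 0.28 in pregnant 1 and 0.35 in non-pregnant cells. Both values of a cell share its total, and weak correlations in counts this sparse are no finding.

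Of 10 listed genes of the Dlk1-Dio3 locus, Meg3, Rian and Wars were measured in every library. Rian, the noncoding gene directly downstream of Meg3 on the same strand (chr12:109603940-109661716), was not called in any comparison between states. It averaged 68.9 and 285 CPM in postpartum insulin-led cells, 324 and 0 in pregnant ones and 469 in non-pregnant ones, from 5 and 56, 174 and 0, and 504 UMIs. In insulin-led cells the postpartum libraries were lower than pregnant 1 and non-pregnant in Rian where they were higher in Meg3. Without pregnant 2 its postpartum minus pregnant difference was -0.73 ± 0.46 and did not pass (limma adjusted p = 0.652). Wars, a tRNA synthetase gene at the edge of the locus, was 67.7 and 42.2 CPM in postpartum, 169.9 and 779.7 in pregnant and 203 in non-pregnant insulin-led cells. Its difference was -0.81 ± 0.49 (adjusted p = 0.624). The order of Rian was not the same in other classes. In glucagon-led cells it averaged 195 and 550 CPM in postpartum, 160 in pregnant 1 and 329 in non-pregnant cells. In somatostatin-led cells it averaged 803 and 918 CPM in postpartum, 356 in pregnant 1 and 615 in non-pregnant cells. The postpartum 1 values of these 2 classes rest on 2 and 1 UMIs. The difference between Meg3 and its neighbours was not tested.

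Of 16 listed nuclear long noncoding RNAs 8 were measured in every library and 6 entered the fit. Without pregnant 2, 4 of these 6 were called higher in postpartum than in pregnant insulin-led cells and 0 lower, with a median of 1.55 against -0.03 over all genes. In that fit 2.7% of all genes passed, and 2 of the 4 are Meg3 and Malat1 themselves, chosen on these values. The 4 others of the 6 had a median of 1.11. Neat1, the paraspeckle scaffold (chr19:5824708-5845478, on the same strand as Malat1), averaged 1739 and 2289 CPM in postpartum, 575 and 0 in pregnant and 461 in non-pregnant insulin-led cells. Both postpartum libraries were above the rest, and the difference from pregnant 1 was 1.64 ± 0.42 (limma adjusted p = 0.00654). Xist, which coats the inactive X chromosome, averaged 885 and 955 CPM in postpartum, 233 and 0 in pregnant and 1454 in non-pregnant insulin-led cells. It was higher in postpartum than in pregnant 1 by 1.62 ± 0.45 (adjusted p = 0.0165), and it was lower in pregnant 1 than in the non-pregnant library, at -2.22 ± 0.52 (adjusted p = 0.00131). Over all 5 libraries, and in cells at or above 95% without pregnant 2, Meg3 and Malat1 were the 2 of the 6 that passed between postpartum and pregnant cells.

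Neat1 ran against Malat1 between the classes. It averaged 86.5 and 517 CPM in postpartum, 250.5 and 0 in pregnant and 134 in non-pregnant glucagon-led cells, below the insulin-led level of the same library in the 4 libraries that had any. Its pooled ratio of glucagon-led to insulin-led cells was 0.0534 (0.00133 to 0.31) and 0.224 (0.14 to 0.34) in postpartum 1 and 2, 0.477 (0.226 to 0.889) in pregnant 1 and 0.303 (0.172 to 0.497) in non-pregnant cells, while that of Malat1 was near 2. The glucagon-led values rest on 1 and 23 Neat1 UMIs in postpartum, 10 in pregnant 1 and 16 in non-pregnant cells. That of postpartum 1 is below the 236 CPM that 3 counts would give. Without pregnant 2 Neat1 was lower in glucagon-led cells, at -1.87 ± 0.30 on the log2 scale (limma adjusted p = 0.000205), and Xist was higher by 0.74 ± 0.23 (adjusted p = 0.0368). In that fit 12.4% of all genes passed. The pooled Xist ratio was 2.07 (1.18 to 3.56) and 3.12 (2.46 to 3.94) in postpartum 1 and 2. It was 1.58 (0.841 to 2.75) in pregnant 1 and 1.06 (0.901 to 1.23) in non-pregnant cells, where both intervals include 1. Over all 5 libraries none of the 6 passed between the classes with limma (Neat1 -1.49, adjusted p = 0.299). In cells at or above 95% without pregnant 2 Neat1 was the 1 that did, where 9.54% of all genes passed.

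Of 24 listed genes for proteins of speckles and paraspeckles 23 were measured in every library and 19 entered the fit without pregnant 2, of which 0 passed in limma between postpartum and pregnant insulin-led cells (1 at an unadjusted p under 0.05, and 0 genes in all with edgeR or DESeq2 over the 5 libraries), with a median of 0.25 against -0.03 over all genes. Srsf7, a splicing factor, was the 1 called higher in postpartum than in non-pregnant cells (1.56 ± 0.47, adjusted p = 0.0185), and Hnrnpa2b1, an RNA-binding protein, the 1 called lower (-1.57 ± 0.45, adjusted p = 0.0101), where 6.1% of all genes passed. Between the classes 0 of 19 passed in limma (1 at an unadjusted p under 0.05). Of 11 listed Polycomb and p53 genes 10 were measured and 3 were tested without pregnant 2. None of the 3 passed between states, and between the classes 2 of 4 were higher in glucagon-led cells, Rbbp7, a histone chaperone (0.86 ± 0.25, adjusted p = 0.0311), and Cdkn1a, the p53 target p21 (0.84 ± 0.25, adjusted p = 0.0308), of which neither passed in cells at or above 95%. Of all genes 12.4% passed in the class fit over all cells.

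Of 23 other imprinted genes 11 were measured and 6 were tested between the states without pregnant 2. None passed between postpartum and pregnant cells, and their median was 0.29. Peg3, a paternally expressed zinc finger gene, was lower in pregnant 1 than in the non-pregnant library (-2.24 ± 0.54, adjusted p = 0.00264). Between the classes 3 of 8 were higher in glucagon-led cells, Gnas, which encodes the stimulatory G protein subunit (1.70 ± 0.16, adjusted p = 2.28e-07), Nap1l5, a paternally expressed gene (1.1 ± 0.26, adjusted p = 0.00868), and Grb10, an adaptor that dampens insulin signalling (0.82 ± 0.26, adjusted p = 0.045). Of all genes 12.4% passed in that fit. In cells at or above 95% 1 of 7 passed, Gnas, against 9.54% of all genes. Of 19 listed host genes of small nucleolar RNAs and related RNAs 9 were measured, and at most 2 were tested in any comparison, with none called.

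The genes whose pattern was most like that of each RNA were taken over 18 points, each a class of at least 10 cells in a library, after the mean of the library was taken out. For Meg3 they were Hsp90aa1 (r = 0.82), Dnaja2 (0.76), Usp2 (0.73), Rpn1 (0.72) and Hnrnph1 (0.68). For Malat1 they were Zc3h11a (r = 0.84), Pabpn1 (0.80), Rpl8 (0.79), Sugt1 (0.77) and Tm4sf4 (0.76). The 2 RNAs were at r = -0.12 with each other. The points share libraries and depth, and those of pregnant 2 rest on few UMIs. Without its 2 points, the genes named for Meg3 were Hsp90aa1 at 0.70, Dnaja2 at 0.59, Usp2 at 0.91, Rpn1 at 0.49 and Hnrnph1 at 0.47, so Usp2 was the 1 of the 5 that came out higher. For Malat1 they were Zc3h11a at 0.76, Pabpn1 at 0.69, Rpl8 at 0.67, Sugt1 at 0.65 and Tm4sf4 at 0.64, all lower than with them, and the 2 RNAs were at 0.32 with each other.

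Cells with at least 3 different markers of a non-endocrine type were few outside the non-pregnant library, and most of them were still insulin-led. Endothelial markers marked 77 cells, 94.8% of them insulin-led, macrophage markers 35 and acinar markers 19. In these groups pooled Meg3 was 1445, 877 and 1937 CPM, and pooled Malat1 975, 3147 and 969 CPM. They draw on the libraries in unequal numbers, so the 3 groups are not compared with each other. The ductal list marked 183 cells, of which 155 were among the 847 cells of the deep non-pregnant library. In these 183 cells pooled Meg3 was 1663 CPM and pooled Malat1 847 CPM. Of the mesenchymal list 2 of 10 markers were measured and of the Schwann list 0 of 8, so those cells could not be seen.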

How the data were processed

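Per the labels, inDrop libraries were made from polyadenylated RNA of viable dissociated islet cells. The submitters' processing notes name GRCm38, mm10, Partek 8.0 and Bowtie 1.1.1 without saying what each was used for. The counter, annotation, strand setting and cell filters are not stated there. Deposited values for non-pregnant cells are a linear signal over 40930 features. The authors deposited log2 values for pregnant and postpartum cells, made from a value per 1000000 with 1 added, over 6695 features, as the numbers show.

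UMIs were recovered per cell as whole multiples of 1 step; 100% of values came within 0.1 of a whole number (by the smallest value of the cell alone, 98.6% in pregnant 2). Features were matched by symbol (6543) or unique synonym (88). All deposited cells were kept and no doublet caller was run; stricter hormone classes stand in for it. The cell names in the files are numbers, so shared barcodes could not be counted. A hormone tie or no hormone left a cell unclassed. Levels are the mean CPM over cells, or pooled UMIs where an interval is given.

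limma 3.58.1 in R 4.3.3 gave all adjusted p-values, two-sided, called under 0.05. It was run on log2 of CPM + 100, with a mean of at least 100 CPM and at least 10 cells per class. The prior was trended, except in the interaction fits, where it had no trend. With 1 library, non-pregnant cells borrow the spread of the paired states. The normalized files made limma the main test; edgeR 4.0.16 and DESeq2 1.42.0 on summed UMIs were alternatives. The fits were tested on simulated data. The 2 members, the 6 gene lists and the marker lists were chosen with earlier results of these data known. Named genes were the members, every measured gene of the lists and the 5 genes most like each member; Gm26906, Gm37376 and Chga were named after their values were seen. Same-numbered libraries did not deviate together (r = 0.0415 over 2203 genes, 2 pairs), so replicate numbers were not taken to pair them.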

Additional observations from a re-analysis of the deposited data

Results flagged for a closer look

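The non-pregnant file holds features that the other 4 files do not, among them genes of the Meg3 locus that no comparison above used. In its 847 cells Dlk1, a membrane protein of the Notch ligand type expressed from the paternal allele, had 53 UMIs in 31 cells, and Mirg, the noncoding gene downstream of Rian, had 56 UMIs in 44 cells. Rtl1 had 4 UMIs, Begain 13 and Wdr25 15, while Dio3 had 0. A count of 0 allows 3, which 5 of these 6 exceed; no control sample was measured for them. Mirg had 51 UMIs in insulin-led and 3 in glucagon-led cells, and Dlk1 had 28 and 17. Insulin-led cells were 80.3% of the cells of this library and glucagon-led cells 11.1%. They held 1088813 and 122746 of its 1315062 non-hormone UMIs of the shared genes. Most UMIs of a gene are thus found in insulin-led cells if it is level between the classes.

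The sign of the Meg3 difference between glucagon-led and insulin-led cells was not the same in every state. On the log2 scale of mean CPM + 100 it was 0.57 and 0.658 in postpartum 1 and 2, 0.163 and 1.8 in pregnant 1 and 2, and -0.0235 in the non-pregnant library. It was positive in every postpartum and pregnant library and negative in the 1 non-pregnant library, where the pooled ratio of 0.988 (0.858 to 1.13) includes 1. In cells at or above 95% of the leading hormone pregnant 1 was also below 1, at 0.592 (0.387 to 0.869). The pregnant 2 value rests on 1 UMI. Tested as an interaction in limma the difference was 0.64 ± 0.90, adjusted p = 1 for postpartum minus non-pregnant and 1.00 ± 0.90, adjusted p = 1 for pregnant minus non-pregnant, and neither passed.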

How the results depend on the processing

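Under the alternatives, levels and depth ratios stayed within their limits in 77 cases and moved beyond them in 35. For postpartum and pregnant levels the limit was 1 SD between the 2 libraries of the state. For non-pregnant levels and for depth ratios it was the counting interval. Differences and counts of genes kept direction and side of the 0.05 threshold, or size, in 109 cases; 22 lost a call, 12 gained one, 50 moved and 2 changed sign. Log2 differences are given with limma adjusted p unless another tool is named; the cause of each change was not tested. In cells of at least 200 UMIs pregnant 2 has 1 insulin-led cell, under the minimum of 10, so those fits do not hold it; nor does the thinned class fit, with 6 glucagon-led cells. For postpartum minus pregnant, Malat1 lost its limma call with a pseudocount of 10 CPM (1.68, adjusted p = 0.0703), with pooled UMIs (1.44, adjusted p = 0.0516) and in cells at or above 95% of the leading hormone (1.26, adjusted p = 0.291). Both genes lost it with all UMIs as the total (Meg3 2.79, Malat1 0.96, 0 genes called, 28 at an unadjusted p under 0.05), with thinned cells (3.88 and 0.75, 1 gene), with edgeR (2.52 and 2.16, 0 genes, 88 unadjusted) and with DESeq2 (2.53 and 2.05, 0 genes, 110 unadjusted). The count of 3 genes became 5 with no filter on low levels, 24 in cells of at least 200 UMIs and 22 at or above 95% without pregnant 2. For postpartum minus non-pregnant, Malat1 lost its call with all UMIs (2.02, 1 gene), thinned (2.93, 0 genes, 32 unadjusted), with edgeR (3.18, 1 gene) and with DESeq2 (3.10, 4 genes). Meg3 gained one in cells of at least 200 UMIs (1.46, 92 genes) and at or above 95% without pregnant 2 (1.28, 86 genes), and a pseudocount of 10 gave 3 genes. For pregnant minus non-pregnant, Malat1 gained a call in cells of at least 200 UMIs (1.18, 34 genes) and at or above 95% without pregnant 2 (1.52, 28 genes), where Meg3 turned to 0.0874. All UMIs gave 1 gene, thinning 0 (30 unadjusted) and edgeR 0 (88 unadjusted, DESeq2 2). For glucagon-led minus insulin-led, Malat1 gained a call in cells of at least 200 UMIs (0.97, 276 genes) and thinned (1.05, 89 genes), and Meg3 turned to -0.0477 at or above 95% without pregnant 2 (227 genes). The count was 0 with a pseudocount of 10 (225 unadjusted), 9 with no filter, 12 pooled, 11 on all UMIs, 8 at 80%, 10 at 95%, 13 with no block for library, 325 with edgeR and 138 with DESeq2.

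Leaving out 1 library at a time, postpartum minus pregnant ran from 1.66 to 5.92 for Meg3 and 1.49 to 1.81 for Malat1, with 1 to 1754 genes called (1754 without pregnant 1, 1 without either postpartum library, in which both members lost their calls). Postpartum minus non-pregnant ran from 1.32 to 1.68 and 2.61 to 2.84, with 1 to 161 genes, and pregnant minus non-pregnant from -4.42 to -0.16 and 0.91 to 1.23, with 1 to 1618 genes. The class difference ran from 0.34 to 0.80 for Meg3 and 0.16 to 0.98 for Malat1, with 0 to 294 genes. With the replicate number as a block, in the pregnant and postpartum libraries alone, Meg3 was 3.79 and lost its call (limma adjusted p = 0.124); without the block these libraries gave 6 genes. The numbers did not pair the libraries (r = 0.0415).

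Depth limits pregnant 2 most: 1 Meg3 and 37 Malat1 UMIs cannot show a difference between its classes.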

Other observations

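Other listed noncoding and imprinted RNAs were measured in the non-pregnant file alone and entered no comparison. In its 847 cells Snrpn, a paternally expressed spliceosomal gene, had 180 UMIs, Snhg1 had 117 and Gm26917 had 112. Mirg had 56 against 2478 of Meg3 and 583 of Rian, the genes before it on the same strand. Ftx and Jpx, noncoding genes of the X inactivation centre, had 41 and 14, Miat had 8, and Tsix, the antisense partner of Xist, had 6 against 1907 of Xist. H19 had 1 and Igf2 had 0.

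In pregnant 2 the 9 cells with no UMI of a classing hormone held 11 of the 37 Malat1 UMIs of the library and no Meg3 UMI. Only 2 of these cells held Malat1, and 10 of the 11 UMIs lay in a single cell.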
